A study of Mus musculus with 6 samples.

Results

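The 40 genes described here encode regulators of pre-mRNA splicing. They are *Thrap3* and its relative *Bclaf1*, 7 genes for SR-related proteins, 10 genes for SR proteins and 21 genes for hnRNPs. They were picked by symbol from the 55364 genes of the deposited table, and each symbol was present exactly 1 time. *Thrap3* was put on the list with its large fall in *Yy1* KD morulae already known, so that its direction is a description and not an independent test. Morulae of the cross BDF1 x BDF1 were grown in KSOM from zygotes injected with an siRNA, either a control (control KD) or an siRNA against *Yy1* (*Yy1* KD), which encodes a zinc finger transcription factor. Each group comprised 3 libraries from total RNA, and each library was made from 10 pooled morulae collected 64 h after insemination. The comparison asks which of these genes changed in level when *Yy1* was reduced. Every group was injected, so that an effect of the injection itself is shared by both, and a knockdown leaves part of the target RNA in place.

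Splicing removes introns from pre-mRNA, and regulators that bind the RNA decide which exons are kept. SR proteins carry a domain rich in arginine and serine, generally bind exons and promote their inclusion, while hnRNPs coat nascent RNA and often promote skipping. THRAP3 and BCLAF1 are related nuclear proteins with stretches of arginine and serine. They associate with each other, with spliceosomes and with factors of mRNA export, and both have been linked to the response to DNA damage.

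Between 11793509 and 24417789 read pairs on genes were recovered for each library from the deposited TPM values (read pairs per exon length, scaled to sum to 1000000 per library). *Yy1* was at 96.0, 100.2 and 89.8 TPM in control KD and at 8.73, 8.90 and 8.32 TPM in *Yy1* KD morulae, which left 9.07% of the control mean. All 10 markers of morulae and early blastocysts examined, such as *Pou5f1* and *Cdx2*, were expressed. Their summed level was between 2097 and 2380 TPM in control KD and between 1818 and 2050 TPM in *Yy1* KD morulae, and 1 of them, *Tfap2c*, was called lower (log2 fold change -0.54, limma adjusted p = 0.0174). The log2 fold change was below 0 for 8 markers (80%, beside 52.8% of all genes tested) and above 0 for 2. The largest falls, not called, were those of *Sox2* (-0.86, limma adjusted p = 0.0942) and *Cdh1* (-0.80, limma adjusted p = 0.125). The part of these differences in the results below was not tested. Of 8 markers of cumulus and granulosa cells, 5 were at 0 in every library, and their sum was at most 2.07 TPM. The sum of 6 sperm markers was at most 2.26 TPM. In pooled embryos, fewer cells of a type and less RNA per cell cannot be told apart.

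*Thrap3* showed the largest change of the 40 genes. Control KD replicates 1 to 3 held 75.3, 90.8 and 88.4 TPM of it, and the 3 *Yy1* KD replicates 15.2, 14.4 and 15.4 TPM. The groups were far apart, and the *Yy1* KD libraries lay close to one another. The mean went from 84.8 ± 8.33 to 15.0 ± 0.540 TPM (SD, n = 3 each), so that 17.7% of the control level remained. The log2 fold change on log2(TPM + 1) was -2.42 (standard error 0.10, 95% interval -2.66 to -2.18, limma adjusted p = 3.36e-04, Benjamini-Hochberg over the 17353 genes tested). These levels rest on 3600, 8656 and 6093 recovered read pairs in control KD and on 1086, 731 and 705 in *Yy1* KD morulae. *Thrap3* (ENSMUSG00000043962.16) lies on the minus strand of chromosome 4 from 126164082 to 126202760 (GRCm38, which is mm10), and no other annotated gene overlaps its exons. Its fall ranked 34th among all genes tested and 6th among the 5720 genes with a mean of at least 20 TPM.

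*Bclaf1* moved the opposite way. It was at 67.2, 65.3 and 63.3 TPM in control KD and at 107, 102 and 79.6 TPM in *Yy1* KD morulae. The 3 control KD libraries were nearly alike, whereas *Yy1* KD replicate 3 lay well below the other two and still above every control. Its mean of 96.4 ± 14.7 TPM after *Yy1* KD was 148% of the control mean of 65.2 ± 1.96 TPM (SD, n = 3 each). The log2 fold change was 0.54 (standard error 0.12, 95% interval 0.26 to 0.83), and the adjusted p of 0.0496 from limma lay just under the threshold of 0.05. This call was not stable. With 1 library left out, *Bclaf1* was called only without *Yy1* KD replicate 3 (0.68, limma adjusted p = 0.0361). It was not called in any of the fits without control KD replicate 1, 2 or 3 or without *Yy1* KD replicate 1 or 2, and the log2 fold change was between 0.46 and 0.68 over these 6 fits. *Bclaf1* (chromosome 10, plus strand, 20312469 to 20344613) has no exonic overlap with another gene either.

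Within each library, the level of *Thrap3* per length could be set against that of *Bclaf1*. There were 1.12, 1.39 and 1.40 units of *Thrap3* for each unit of *Bclaf1* in control KD and 0.142, 0.141 and 0.194 in *Yy1* KD morulae. By TPM, *Thrap3* was thus the higher of the pair in all 3 control KD libraries and the lower in all 3 *Yy1* KD libraries. TPM divide by exon length, 9234 bases for *Thrap3* and 15301 for *Bclaf1*. By recovered read pairs, *Bclaf1* was the higher in control KD too, at 5320.5, 10309 and 7222 beside 3600, 8655.5 and 6093 for *Thrap3*. The order of the pair in control KD thus depends on the annotated length. On the log2 scale, with 1 TPM added to each gene, the ratio went from 0.37 ± 0.18 to -2.59 ± 0.26 (SD, n = 3 each), a difference of -2.96 (two-sided exact permutation test over libraries, p = 0.1, and no smaller p is possible with 3 libraries per group). A factor that scales a whole library nearly cancels in a ratio taken within it. The same difference of -2.96 with median-ratio scaling is therefore no independent check. The sum of both genes was 143, 156 and 152 TPM in control KD and 123, 117 and 95.04 TPM in *Yy1* KD morulae. The groups did not overlap, with means of 150.1 ± 6.91 and 111 ± 14.5 TPM (SD, n = 3 each). Since *Thrap3* was listed for its known fall, the ratio and the sum describe the pair and support nothing further. Among the 40 genes ranked by TPM, *Thrap3* went from rank 26 to rank 39 and *Bclaf1* from rank 32 to rank 21.

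**Figure D1:**
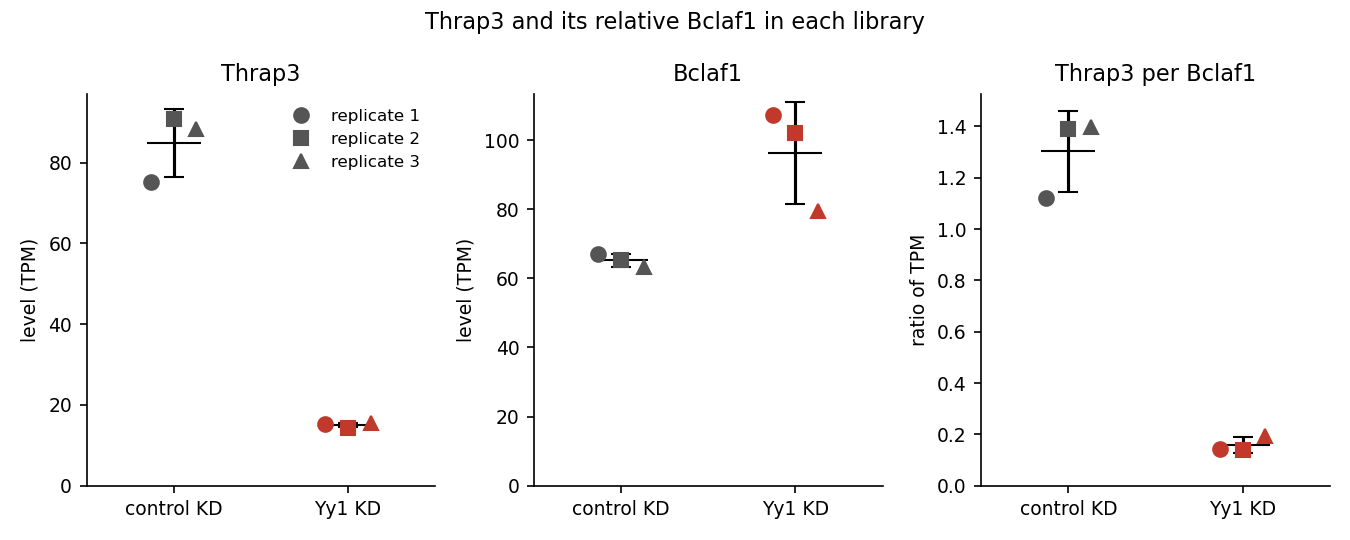
Level of *Thrap3* (left) and *Bclaf1* (middle) in TPM and their ratio (right) in 3 control KD (grey) and 3 *Yy1* KD (red) libraries; symbols mark the replicate number, horizontal bars the mean and error bars the SD. *Thrap3* fell from a mean of 84.8 to 15.0 TPM and *Bclaf1* rose from 65.2 to 96.4 TPM. The ratio of TPM, which depends on the annotated exon lengths, went from above 1 in every control KD library to at most 0.194 in every *Yy1* KD library.

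YY1 binds promoters at a motif built around ATGG, and the consensus AANATGGC (GCCATNTT on the other strand) is a common form of it. To show where the 2 relatives stand in this respect, the 250 bases before their RefSeq start sites (GRCm38.p6) are given in the direction of each gene, at chr4:126202711-126202960 (minus strand) and chr10:20312219-20312468 (plus strand). Capitals mark the core ATGG, or CCAT on the other strand.
*Thrap3*: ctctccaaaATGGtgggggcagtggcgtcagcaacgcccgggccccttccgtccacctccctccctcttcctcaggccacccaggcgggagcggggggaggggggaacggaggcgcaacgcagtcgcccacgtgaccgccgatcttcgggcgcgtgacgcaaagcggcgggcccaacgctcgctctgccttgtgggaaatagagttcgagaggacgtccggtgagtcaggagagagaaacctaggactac
*Bclaf1*: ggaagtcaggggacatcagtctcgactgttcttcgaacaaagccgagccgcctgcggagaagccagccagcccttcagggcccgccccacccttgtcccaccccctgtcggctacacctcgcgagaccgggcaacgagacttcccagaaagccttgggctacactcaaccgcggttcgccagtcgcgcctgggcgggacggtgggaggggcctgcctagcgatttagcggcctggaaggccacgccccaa
The core was present 1 time in the *Thrap3* promoter and 0 times in that of *Bclaf1*. It is short, and 77.4% of the 32851 promoters of this length in the RefSeq table held it. The GC content of both promoters was alike, 66.8% and 66.4%, against a median of 52.4%. In *Thrap3* the core stands in AAAATGGT, which differs from the consensus AANATGGC in its last base only. How many promoters hold such a near match was not counted. Neither promoter held the full consensus AANATGGC, also when the 50 bases after the start were included. This says only that these letters are not in this window.

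Of the 40 genes, 5 were called in *Yy1* KD morulae (12.5%), against 6.11% of all genes tested and 10.4% of the genes with a mean of at least 20 TPM. Without *Thrap3*, listed for its known fall, and *Bclaf1*, 3 of 38 genes were called (7.89%), all lower. Both shares are near those of the background. *Thrap3*, *Hnrnpk*, *Hnrnpll* and *Srsf3* were lower and *Bclaf1* was higher. Lower genes made up 4.2% and higher genes 1.92% of all genes tested, and 6.85% and 3.55% of those with at least 20 TPM. In 15 genes the values did not overlap between groups, with *Yy1* KD below control KD in 13 and above it in 2, which is 37.5% of the list beside 30.1% of all genes tested (17.2% lower and 12.9% higher). The log2 fold change was below 0 for 25 genes (62.5%, beside 52.8% of all genes tested) and above 0 for 15, and its median was -0.10, beside -0.02 over all genes tested. For 32 of the 40 genes, the 95% interval of the log2 fold change lay within 0.5 of 0 on either side. The 40 genes together took between 6923 and 7216 TPM in control KD and between 6812 and 7128 TPM in *Yy1* KD libraries. These ranges overlapped, with *Yy1* KD replicate 3 below every control KD library, while single genes moved.

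The count of 5 was close to the threshold, since the adjusted p of *Hnrnpll*, *Bclaf1* and *Srsf3* lay between 0.0489 and 0.0499. Without any 1 of the 6 libraries, 1 or 2 members were called. They were 1 member without control KD replicate 1, 2 or 3 or *Yy1* KD replicate 2, and 2 members without *Yy1* KD replicate 1 or 3, while the calls over all genes went from 1061 to between 75 and 418. *Thrap3* was called in all 6 of these fits and in all 8 other alternatives.

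**Figure D2:**
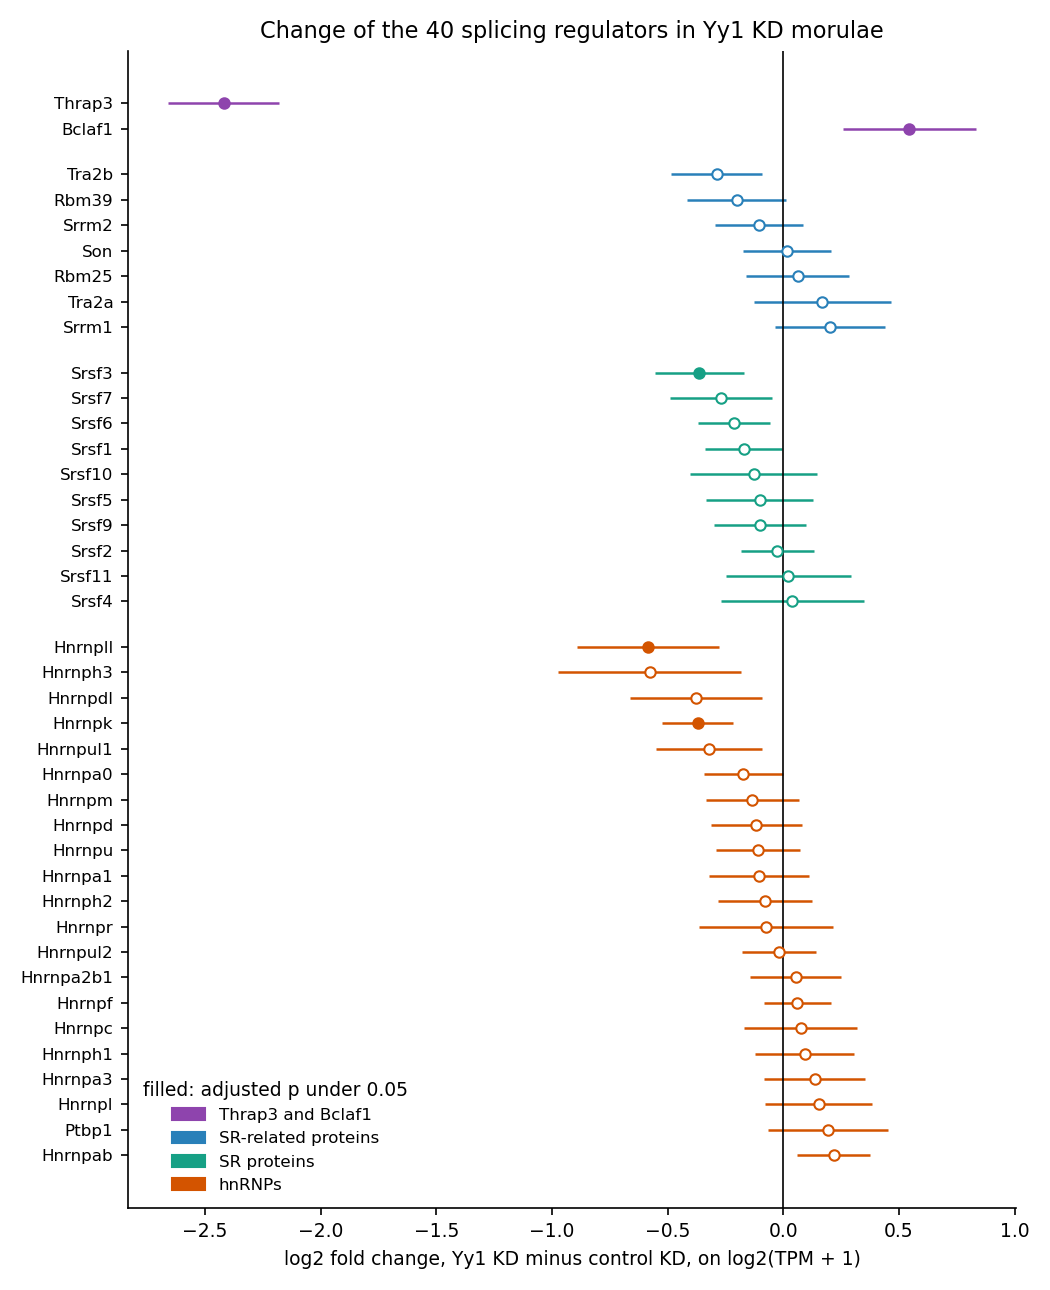
Log2 fold change on log2(TPM + 1), *Yy1* KD minus control KD, of the 40 genes by group, with 95% intervals from limma (3 libraries per group); filled points have an adjusted p under 0.05. *Thrap3* at -2.42 stands far to the left of all others, which lie between -0.58 and 0.54.

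The 7 SR-related proteins organise nuclear speckles or bridge splicing factors to the RNA, and 0 of them were called by limma (1 at an unadjusted p under 0.05, *Tra2b*, and also 1 called by limma-voom). *Son* and *Srrm2*, which build the core of nuclear speckles, had log2 fold changes near 0. *Son* was at 116, 101 and 115 TPM in control KD and at 114, 110.2 and 111 TPM in *Yy1* KD morulae (log2 fold change 0.02, 95% interval -0.17 to 0.21). *Srrm2* was at 160, 154 and 173 TPM in control KD and at 154, 141 and 158 TPM in *Yy1* KD morulae (-0.10, interval -0.30 to 0.09). The values of both overlapped between groups.

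*Srrm1*, a coactivator that links SR proteins to the spliceosome, had a log2 fold change of 0.20 (limma adjusted p = 0.277). *Rbm25* and *Rbm39*, which act with U1 and U2 snRNP, had values of 0.06 and -0.20 (limma adjusted p = 0.735 and 0.229). *Tra2a* and *Tra2b* encode sequence-specific activators that are close relatives. *Tra2b* was at 71.7, 77.6 and 69.5 TPM in control KD and at 62.6, 56.0 and 60.0 TPM in *Yy1* KD morulae. These values did not overlap, but *Tra2b* did not pass the test (-0.29, limma adjusted p = 0.0942). *Tra2a* was at 92.4, 69.8 and 92.2 TPM in control KD and at 100.3, 90.7 and 93.3 TPM in *Yy1* KD morulae (0.17, limma adjusted p = 0.463). *Tra2a* exceeded *Tra2b* in 2 of the 3 control KD libraries and in all 3 *Yy1* KD libraries.

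Of the 10 genes for SR proteins, 1 was called (10%, beside 6.11% of all genes tested and 10.4% of those with at least 20 TPM). *Srsf3*, the smallest SR protein and a factor of mRNA export, was at 103, 106 and 100.2 TPM in control KD and at 87.0, 75.8 and 76.8 TPM in *Yy1* KD morulae. The values did not overlap, and the control KD libraries lay within a few TPM of each other. *Srsf3* fell by 0.36 on the log2 scale (standard error 0.08, limma adjusted p = 0.0499), to 77.7% of the control. It was called in 0 of the 6 fits that left out 1 library, each control KD and *Yy1* KD library included, in which the log2 fold change was between -0.43 and -0.32.

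*Srsf7*, a close relative of *Srsf3*, was at 138, 155 and 156 TPM in control KD and at 125, 113 and 135 TPM in *Yy1* KD morulae (-0.27, limma adjusted p = 0.140). The values of *Srsf6* did not overlap either, 93.5, 95.4 and 93.4 TPM against 82.6, 78.7 and 82.0 TPM (-0.21, limma adjusted p = 0.111). *Srsf1*, which binds exonic enhancers and is the best known SR protein, was at 219, 229 and 230 TPM in control KD and at 211, 188 and 203 TPM in *Yy1* KD morulae (-0.17, limma adjusted p = 0.201). In these 3 genes every *Yy1* KD library was below every control KD library, by less than the test could call.

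The remaining 6 SR genes had log2 fold changes between -0.13 (*Srsf10*) and 0.04 (*Srsf4*), and their values overlapped between groups. *Srsf2* had the narrowest interval of the 6, at 211, 218 and 211 TPM in control KD and 204, 221 and 203 TPM in *Yy1* KD morulae (-0.03, 95% interval -0.18 to 0.13). It shares 748 bases of exon with *Mettl23* and *Mfsd11*, and read pairs there were divided among the genes without regard to strand. In all, 18 of the 40 genes share exonic sequence with another gene. Over all 10 genes the median log2 fold change was -0.12, beside -0.02 over all genes tested. It was below 0 for 8 genes (80%, beside 52.8% of all genes tested). Their summed level was 1166, 1181 and 1193 TPM in control KD and 1105, 1033 and 1064 TPM in *Yy1* KD morulae.

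The 21 hnRNP genes held the most abundant transcripts of the list. *Hnrnpab* was first in rank with a mean of 923 TPM in control KD, followed by *Hnrnpa1* with 747 TPM and *Hnrnpa2b1* with 553 TPM, and *Hnrnpr* was last with 15.5 TPM. The first 5 ranks were held by the same genes in *Yy1* KD morulae, namely these 3 and *Hnrnpf* and *Hnrnpc*. The median log2 fold change was -0.08, and 2 genes were called, both lower. This share of 9.52% is near the background, 6.11% of all genes tested and 10.4% of those with at least 20 TPM.

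*Hnrnpk* encodes a protein with KH domains that binds stretches of cytosine. It was at 290, 286 and 281 TPM in control KD and at 231, 214 and 217 TPM in *Yy1* KD morulae. The spread within groups was small beside the gap between them, and *Hnrnpk* fell by 0.37 on the log2 scale (standard error 0.06, limma adjusted p = 0.0272), to 77.3% of the control. Of the fits without 1 library, only that without *Yy1* KD replicate 1 called it (-0.40, limma adjusted p = 0.0467). In the other five, without control KD replicate 1, 2 or 3 or *Yy1* KD replicate 2 or 3, it was not called, and the range over all 6 was -0.40 to -0.34. *Hnrnpk* (chromosome 13, 58391142 to 58403343, minus strand) shares 330 of its 6466 exonic bases with *Rmi1*.

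*Hnrnpll* represses exons in lymphocytes and is the relative of *Hnrnpl*. It was at 24.7, 25.4 and 22.4 TPM in control KD and at 13.6, 16.1 and 17.9 TPM in *Yy1* KD morulae. The *Yy1* KD libraries were all lower, and *Hnrnpll* fell by 0.58 on the log2 scale (standard error 0.13, limma adjusted p = 0.0489), to 65.6% of the control. It was called in 0 of the 6 fits that left out 1 control KD or *Yy1* KD library, with log2 fold changes between -0.67 and -0.48. *Hnrnpl*, which is expressed several times higher, was at 106, 113 and 93.0 TPM in control KD and at 109.9, 112 and 124 TPM in *Yy1* KD morulae (0.15, limma adjusted p = 0.396). The log2 ratio of *Hnrnpl* to *Hnrnpll* was 2.06 in control KD and 2.79 in *Yy1* KD morulae on average, and its values did not overlap between groups.

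*Hnrnph3* had a change as large as that of *Hnrnpll* and did not pass the test. It was at 24.5, 22.6 and 27.7 TPM in control KD and at 12.8, 18.5 and 18.3 TPM in *Yy1* KD morulae (-0.58, 95% interval -0.97 to -0.18, limma adjusted p = 0.0948). Its standard error of 0.17 was the largest of all 40 genes. Its relatives *Hnrnph1* and *Hnrnph2*, which bind runs of guanine, had log2 fold changes of 0.09 and -0.08 (limma adjusted p = 0.583 and 0.617).

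*Hnrnpdl* was at 90.0, 91.9 and 82.3 TPM in control KD and at 60.4, 63.6 and 80.0 TPM in *Yy1* KD morulae (-0.38, limma adjusted p = 0.117), where *Yy1* KD replicate 3 lay close to the controls. *Hnrnpd*, its relative and a regulator of mRNA stability, had a value of -0.12 (limma adjusted p = 0.443). *Hnrnpul1* was at 52.4, 62.6 and 61.3 TPM in control KD and at 49.0, 45.2 and 46.0 TPM in *Yy1* KD morulae (-0.32, limma adjusted p = 0.103), whereas *Hnrnpul2* was at -0.02 (95% interval -0.18 to 0.14).

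*Hnrnpab* was the one hnRNP gene whose *Yy1* KD values all exceeded its control KD values, 1109, 1077 and 1037 TPM against 908, 911 and 950 TPM. It did not pass the test (0.22, 95% interval 0.06 to 0.37, limma adjusted p = 0.107), and it shares 809 of 2782 exonic bases with *Phykpl*. *Ptbp1*, which represses exons at pyrimidine tracts, was at 295, 332 and 273 TPM in control KD and at 303, 355 and 371 TPM in *Yy1* KD morulae (0.19, limma adjusted p = 0.338). The abundant *Hnrnpa1* and *Hnrnpa2b1*, which bind similar sites in exons, had values of -0.11 and 0.05 (limma adjusted p = 0.534 and 0.749). *Hnrnpc*, which coats nascent transcripts, and *Hnrnpu*, a factor of the nuclear scaffold, had values of 0.08 and -0.11 (limma adjusted p = 0.707 and 0.436). The values of *Hnrnpa0* were lower in every *Yy1* KD library than in any control without passing the test (-0.17, limma adjusted p = 0.205), whereas *Hnrnpa3*, *Hnrnpf*, *Hnrnpm* and *Hnrnpr* overlapped, with values of 0.13, 0.06, -0.13 and -0.07. For *Hnrnpa1*, *Hnrnpa2b1*, *Hnrnpc* and *Hnrnpu*, the 95% interval lay between -0.32 and 0.32.

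**Figure D3:**
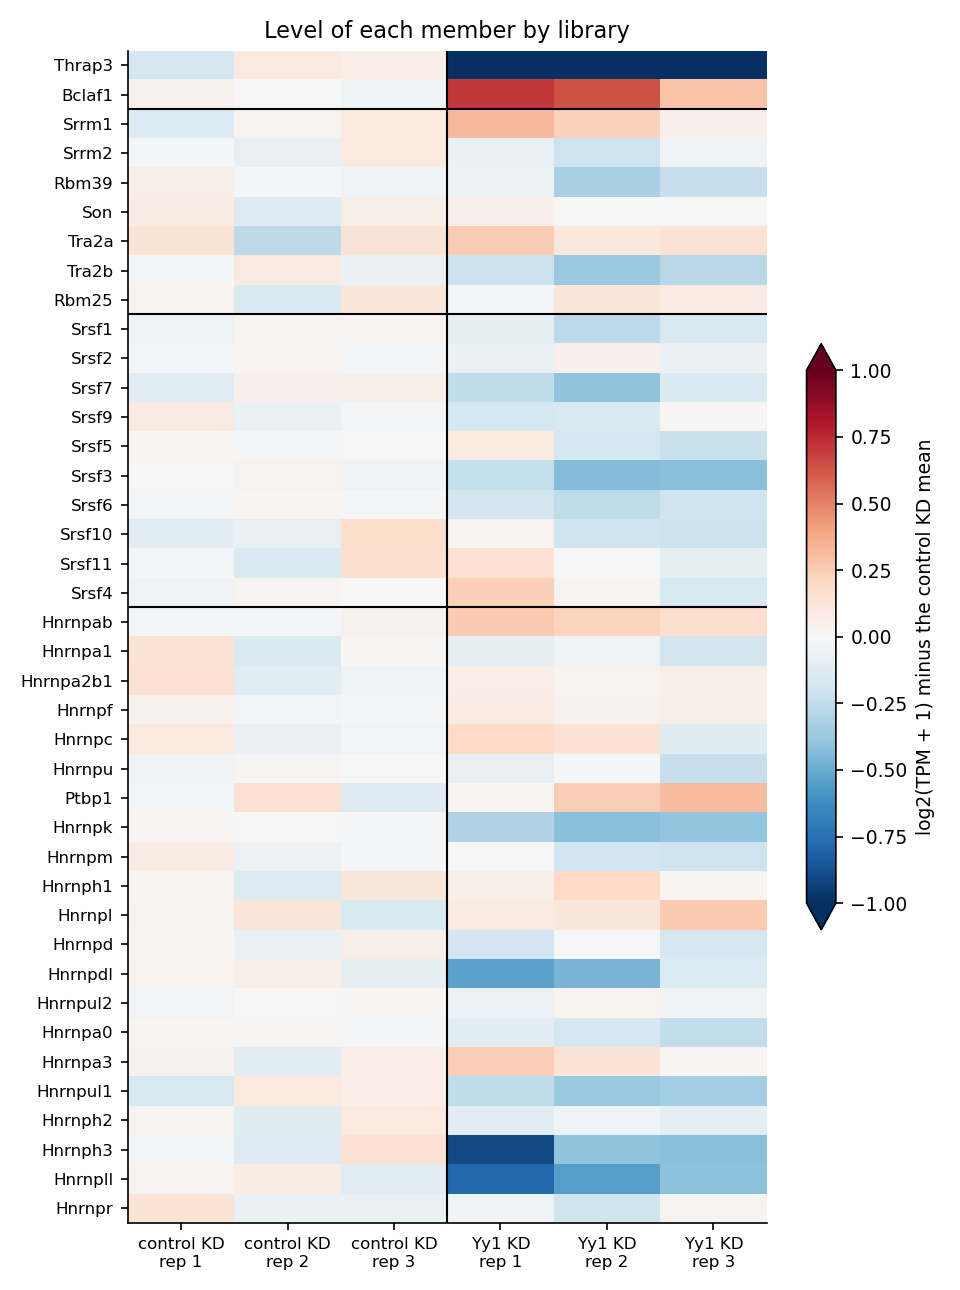
Log2(TPM + 1) of each of the 40 genes in each of the 6 libraries, minus the mean of the 3 control KD libraries of that gene; the colour scale ends at -1 and 1, rows are ordered by group and level, and black lines separate the groups. *Thrap3* is below -1 in all 3 *Yy1* KD libraries and *Bclaf1* is above 0 in all 3, while most other rows stay pale.

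The consensus AANATGGC was searched on both strands of the 300 bases around each RefSeq start (250 before and 50 after). The table held 38 of the 40 genes, all but *Hnrnpll* and *Hnrnpul2*. A match was present in 8 of them (21.1%), beside 10.4% of the 9767 tested genes in the table, 27.7% of 517 genes called lower and 6.05% of all 32851 promoters. It was present in 0 of the 4 members in the table that limma called. Limma-voom on recovered read pairs also called *Hnrnpul1*, which holds a match (-0.32, adjusted p = 0.0420). The other members that it called in addition, *Tra2b*, *Hnrnpab*, *Hnrnpdl* and *Hnrnph3*, hold no match. The matches are shown because they are the sites at which this consensus occurs near the starts of splicing regulators. Each run of 30 bases is written in the direction of the consensus, with the match in capitals.
*Son* (chr16:91647652-91647681, plus strand): cgtcaaccactAACATGGCggccgagttcg
*Rbm39* (chr2:156179606-156179635, minus strand): cgcgacctcccAACATGGCgcccgtggaac
*Rbm39* (chr2:156179536-156179565, minus strand): cctccgccgctAAAATGGCagcgcgggttt
*Tra2a* (chr6:49264015-49264044, plus strand): cacgttcaggcAAAATGGCgcccgtgccgc
*Srsf2* (chr11:116853124-116853153, plus strand): cccacccttacAAAATGGCgcccgcgccac
*Hnrnpc* (chr14:52103989-52104018, plus strand): cgtctcctcacAAAATGGCccccgagctcc
*Hnrnpd* (chr5:99978921-99978950, plus strand): gcggaccacctAAAATGGCcgacggaagaa
*Hnrnpul1* (chr7:25754750-25754779, plus strand): ggcggcggctcAAGATGGCcgccgccgcct
*Ptbp1* (chr10:79854196-79854225, plus strand): tgcccgcttctAAGATGGCgaagcagcttg
*Ptbp1* (chr10:79854323-79854352, plus strand): tacccactctcAAGATGGCgtcccacgggt
The genes with these sites had log2 fold changes between -0.32 (*Hnrnpul1*) and 0.19 (*Ptbp1*). A match is a description of the letters and does not show that YY1 was bound.

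Other genes of the splicing pathway were examined in 3 lists. Of the kinases that phosphorylate SR proteins, 9 of 10 could be tested, 3 were lower and 0 were higher (*Srpk3* was below the filter). The share of lower genes was 4.2% over all genes tested and 6.85% over those with at least 20 TPM. The 3 genes encode CLK kinases, which act in the nucleus. The fourth CLK gene on the list, *Clk3*, is named here after its values were seen. It was at 15.0, 13.0 and 16.4 TPM in control KD and at 16.4, 13.7 and 17.8 TPM in *Yy1* KD morulae, with overlapping groups (0.10, limma adjusted p = 0.714). *Clk1* was at 24.8, 22.2 and 23.6 TPM in control KD and at 10.01, 8.68 and 10.7 TPM in *Yy1* KD morulae (-1.19, limma adjusted p = 0.00878). *Clk4*, its closest relative, was at 10.1, 8.47 and 10.2 TPM in control KD and at 5.47, 4.77 and 4.49 TPM in *Yy1* KD morulae (-0.84, limma adjusted p = 0.0309). *Clk2* was the third (-0.51, limma adjusted p = 0.0455). *Clk1* was called in 5 of the 6 fits that left out 1 library and *Clk2* and *Clk4* in 0 of them. The exception for *Clk1* was the fit without control KD replicate 3, with a value of -1.18 and a limma adjusted p of 0.0511.

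Of 23 partners of THRAP3 and BCLAF1 in the SNARP complex, in the TREX complex of mRNA export and in the exon junction complex, 1 was called (4.35%, beside 6.11% of all genes tested). *Alyref*, the adaptor that hands mRNA to the export receptor, was at 76.2, 76.6 and 74.9 TPM in control KD and at 124, 121 and 117 TPM in *Yy1* KD morulae. It rose by 0.66 on the log2 scale (standard error 0.07, adjusted p = 0.00855 by limma), and this call held whichever 1 of the 6 libraries was dropped. The median of the 23 was 0.06, and 15 of them were above 0. The share below 0 was 34.8%, beside 52.8% of all genes tested.

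Among 65 other splicing regulators, 59 were tested, of which 6 were lower and 3 were higher (15.3% called, beside 6.11% of all genes tested and 10.4% of those with at least 20 TPM). *Pspc1*, a paraspeckle protein, was at 19.9, 18.6 and 20.4 TPM in control KD and at 4.01, 7.26 and 5.07 TPM in *Yy1* KD morulae (-1.71, limma adjusted p = 0.0117). *Nono*, another paraspeckle protein, was higher (0.33, limma adjusted p = 0.0339). The next 3 falls in size were those of *Rbm10* (-0.80), which shares 117 exonic bases with *Ndufb11*, *Celf1* (-0.77) and *Rsrc2* (-0.65), with limma adjusted p of 0.0114, 0.00565 and 0.0127. *Puf60* (0.44, limma adjusted p = 0.0297) and *Khdrbs1* (0.38, limma adjusted p = 0.0475) were higher. When 1 control KD or *Yy1* KD library was left out, *Celf1* was called in all 6 fits, whereas *Puf60*, *Khdrbs1* and *Nono* were called in 0 of 6. *Rbm10* lost its call without control KD replicate 3, and *Pspc1* and *Rsrc2* without control KD replicate 1 or 3. Over the 3 lists, 13 of 91 genes were called (14.3%). Among all genes tested this share was 6.11%, and among those with at least 20 TPM it was 10.4%. When 1 library was left out, the count over the 3 lists was between 2, without control KD replicate 3, and 7. The 91 genes had a median of -0.01 on the log2 scale, and none fell as far as *Thrap3*. These lists were chosen with earlier results known, so that their share of calls is a description and not an independent test.

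**Figure D4:**
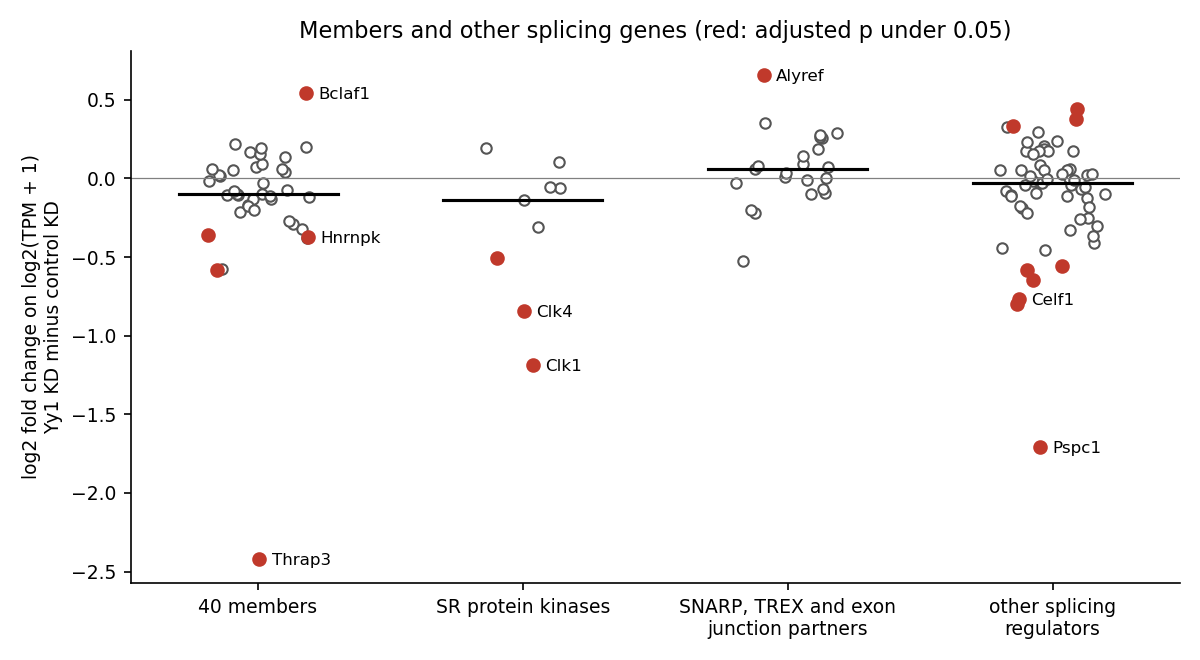
Log2 fold change on log2(TPM + 1), *Yy1* KD minus control KD, of the 40 genes and of 3 lists of other splicing genes (9, 23 and 59 genes tested); red points have an adjusted p under 0.05, and horizontal bars are medians. The medians lie near 0, between -0.13 and 0.06, and *Thrap3*, *Pspc1* and *Clk1* lie lowest.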

How the data were processed

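RNA-seq libraries (SMART-Seq stranded kit) from 3 control KD and 3 *Yy1* KD pools of morulae were analysed. The authors trimmed reads with Trim Galore 0.6.7, aligned them to mm10 with HISAT2 2.2.1, removed ribosomal reads with bedtools, counted pairs per GENCODE gene with featureCounts 2.0.1 (strand ignored, pairs on several genes divided), and deposited TPM. The authors' own test used edgeR on counts, which were not used here. All columns of values were used.

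Genes with at least 1 TPM in at least 3 of 6 libraries (17353) were tested by limma 3.58.1 in R 4.3.3 on log2(TPM + 1), with a variance trend, two-sided, and Benjamini-Hochberg adjustment over all of them. An adjusted p under 0.05 was called. Fold changes on this scale understate those of low genes. The script was tested on simulated data. Single values were compared by an exact permutation test (SciPy 1.17.1). Groups and replicate numbers are those of the labels. Nothing in the labels ties pools to separate matings. The p-values thus set group differences against the spread between these pools, which may not be independent biological replicates.

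Read pairs were recovered as TPM multiplied by exon length of GENCODE vM21, which matched 54312 of 55364 gene versions, and between 80.6% and 81.6% of values under 20 pairs were whole within 0.01. Gene coordinates are from vM21 and promoters from RefSeq GRCm38.p6, the same assembly. The alternatives were another pseudocount, filters, scalings, variance model, limma-voom on the read pairs, the fit without each library in turn and a replicate block.

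The 40 genes and the other lists were chosen with earlier results of these data known. Any of the 40 could be named. From the other lists, called genes were named, and in a list with more than 8 calls only the 4 largest falls and up to 4 largest rises.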

Additional observations from a re-analysis of the deposited data

How the results depend on the processing

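Of the 40 genes, 5 were called. The count was 10 with limma-voom on recovered read pairs (8 lower, 2 higher), which called 2086 of all 16931 genes (12.3%). For the other settings, the share of all genes called is in brackets. With a mean of at least 5 TPM the count was 5 (11.4%), and with quantile normalization 3 (5.41%). Median-ratio scaling gave 2 (5.71%) and a pseudocount of 0.1 also 2 (5.64%). The count was 1 without a filter on low values (0.968%), without a variance trend (2.96%) and with the replicate block (1.65%). It was between 1 and 2 when 1 library was left out (0.432% to 2.41%). *Thrap3* was called each time, with a log2 fold change between -2.50 and -2.35. The genes called by limma-voom in addition were *Tra2b*, *Hnrnpab*, *Hnrnpdl*, *Hnrnph3* and *Hnrnpul1*. In the 3 other lists, 13 genes were called. Their count was 22 of 91 with limma-voom and 18 of 84 with a mean of at least 5 TPM. Median-ratio scaling gave 12, a pseudocount of 0.1 also 12 and quantile normalization 11. The count was 6 of 97 without a filter, 7 without a variance trend and 5 with the replicate block. It was between 2 and 7 when 1 library was left out. The shares of all genes called in these fits are those given above. Fewer libraries leave fewer degrees of freedom, and for the other settings the cause was not tested. The log2 ratio of *Thrap3* to *Bclaf1* differed by -3.11 to -2.89 when 1 library was left out, by -3.04 with a pseudocount of 0.1 and by -2.95 with quantile normalization.

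The block gave -2.96 for this ratio (exact sign-flip test, p = 0.25, the smallest that 3 pairs allow) and 287 calls over all genes, beside 1061. Deviations of same-numbered libraries correlated across genes at -0.0039, 0.032 and 0.075, none over 0.1, so that the numbers were not taken to pair the libraries. Control KD replicates 2 and 3 correlated best with their own number, and control KD replicate 1 with *Yy1* KD replicate 2.

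Of 560 alternative values of the members, 12 changed sign, in 7 genes that were never called. *Son* was at -0.00043 without *Yy1* KD replicate 1, and leaving out 1 library moved it between -0.049 and 0.054. The same range was -0.063 to 0.13 for *Srsf4*, -0.049 to 0.10 for *Srsf11*, -0.011 to 0.12 for *Rbm25*, -0.00098 to 0.13 for *Hnrnpa2b1* and -0.044 to 0.00011 for *Hnrnpul2*. With quantile normalization *Hnrnpa2b1* was at -0.032, *Hnrnpr* at 0.013 and *Hnrnpul2* at 0.034, and median-ratio scaling put *Hnrnpul2* at 0.0073.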
